A study of Pimephales promelas with 12 samples.

Results

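In a few clusters of the fathead minnow transcriptome assembly, 1 contig was high in brain while another was high in gut and liver. Of the 3676 assembly clusters with at least 2 contigs that were tested, 9 were split in this way, and they held 21 such contigs, the members, of 42878 contigs tested in all. A contig is a stretch of transcript put together from sequencing reads, and a cluster is a group of contigs whose names share the stem FHM_All_PTA_Assem and a cluster number. The contig names end in C or CB and a number, and the meaning of C as against CB is not given in the sources used here. Contigs are written without the stem, so that 740.C17 is contig C17 of cluster 740.

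RNA was taken from adult male fathead minnows (Pimephales promelas), a small cyprinid fish used in water toxicity testing, kept in a laboratory culture, with no treatment named in the labels. It came from the hypothalamus, the telencephalon, the gut and the liver, with 3 libraries per tissue, numbered 1 to 3. The methods describe 3 individual males, and libraries of 1 number varied together across the tissues, so that the numbers were read as the fish. Polyadenylated RNA was sequenced as paired reads, and only reads that mapped to a single place were counted. The 12 libraries held 14546298 to 22589095 counts.

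Members were chosen by their measured levels. A contig was called brain-high if its mean level in each of the 2 brain regions was at least 4 times its mean in both gut and liver, with a mean count of at least 50 in both brain regions. A contig was called body-high in the mirror case, where body stands for gut and liver. Levels are CPM, the counts of a contig relative to the scaled total of its library, after scaling by edgeR's trimmed mean of M-values (TMM). They were computed for contigs that 2 or more libraries of the same tissue had detected. A cluster with at least 1 contig of each kind was called split. The members are 11 brain-high and 10 body-high contigs, and since that count on the high side carries a contig past the filter, all 21 passed it. Since the contrast of brain with body chose them, that contrast is a description with no test. It was computed on whole tissue, in which fewer cells of a type and less RNA per cell cannot be told apart.

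A gene can give several transcripts through alternative splicing, other start sites or other polyadenylation sites. Vertebrate brain is known for its wide use of alternative exons and of long 3′ untranslated regions. Teleost fish also carry many duplicated genes from an ancient duplication of the whole genome, and such copies can be used in different tissues. A transcriptome assembler groups contigs that share sequence, so a cluster can hold isoforms, copies of a gene, alleles or fragments of 1 transcript. The labels and files do not say which of these a cluster holds. The hypothalamus governs hormone release from the pituitary and the telencephalon is the forebrain region of fish linked to learning and behaviour, while the gut takes up nutrients and the liver is the main organ of metabolism. The contig names carry no gene names, so neither the roles of the members nor marker genes for the labelled tissues could be looked up. Contig lengths were not used, so levels are mainly compared for 1 contig across tissues. Shares, ratios and sums of contigs, and the naming of a major contig, are not corrected for contig length.

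Splits were a small part of the clusters with at least 2 tested contigs. How many of these clusters had contigs with counts high enough for the rule was not counted. In all, 2194 assembly contigs were brain-high and 746 were body-high. Among the clusters with at least 2 tested contigs, 474 had a brain-high contig and 240 had a body-high contig. The 9 clusters with both were 1.9% of the first number, 3.75% of the second and 0.245% of the 3676 clusters. They held 49 tested contigs, of which 28 met neither rule.

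The call rests on the scaling. The TMM factors were 0.616 to 1.40, with the 6 brain libraries above 1 and the 6 gut and liver libraries below 1, and TMM scaling moved every contig by -0.75 on the log2 scale, brain minus body on average over the libraries, relative to scaling by library size alone. With library size alone, no cluster was split (0 of 9). All 11 brain-high contigs then kept a margin of at least 4-fold (6.75 to 138), where the margin is the lower mean on the high side over the higher mean on the other side. The 10 body-high contigs had margins of 2.23 to 3.72 with library size alone, against 4.28 to 6.95 with TMM. All 10 thus still had higher means in gut and liver, and only in 740.C8 did the libraries then overlap with brain. The contrast of brain with body chose these contigs, and the share of all contigs without overlap is given below for TMM only. Nothing is therefore read from the lack of overlap. Under TMM scaling the brain-high contigs had margins of 4.93 to 97.0, with a median of 8.68.

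In none of the 21 members did the 6 brain libraries overlap with the 6 gut and liver libraries. Of all 42878 contigs tested, 17.3% did not overlap with brain higher and 8.64% did not overlap with brain lower, and the members were chosen by that same contrast, so nothing is read from this count. The members nearest to the 4-fold limit were 3299.C4 and 3803.C2 among the brain-high contigs, with margins of 4.93 and 5.72, and 1181.CB3 and 1870.C6 among the body-high contigs, with margins of 4.28 and 4.30. Just outside it were 80.CB6 and 80.CB5 on the brain side, at 3.19 and 2.93, and 5814.C1 and 302.CB1 on the body side, at 3.56 and 3.06. Those 4 contigs belong to clusters that would have been split had they passed.

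**Figure D1:**
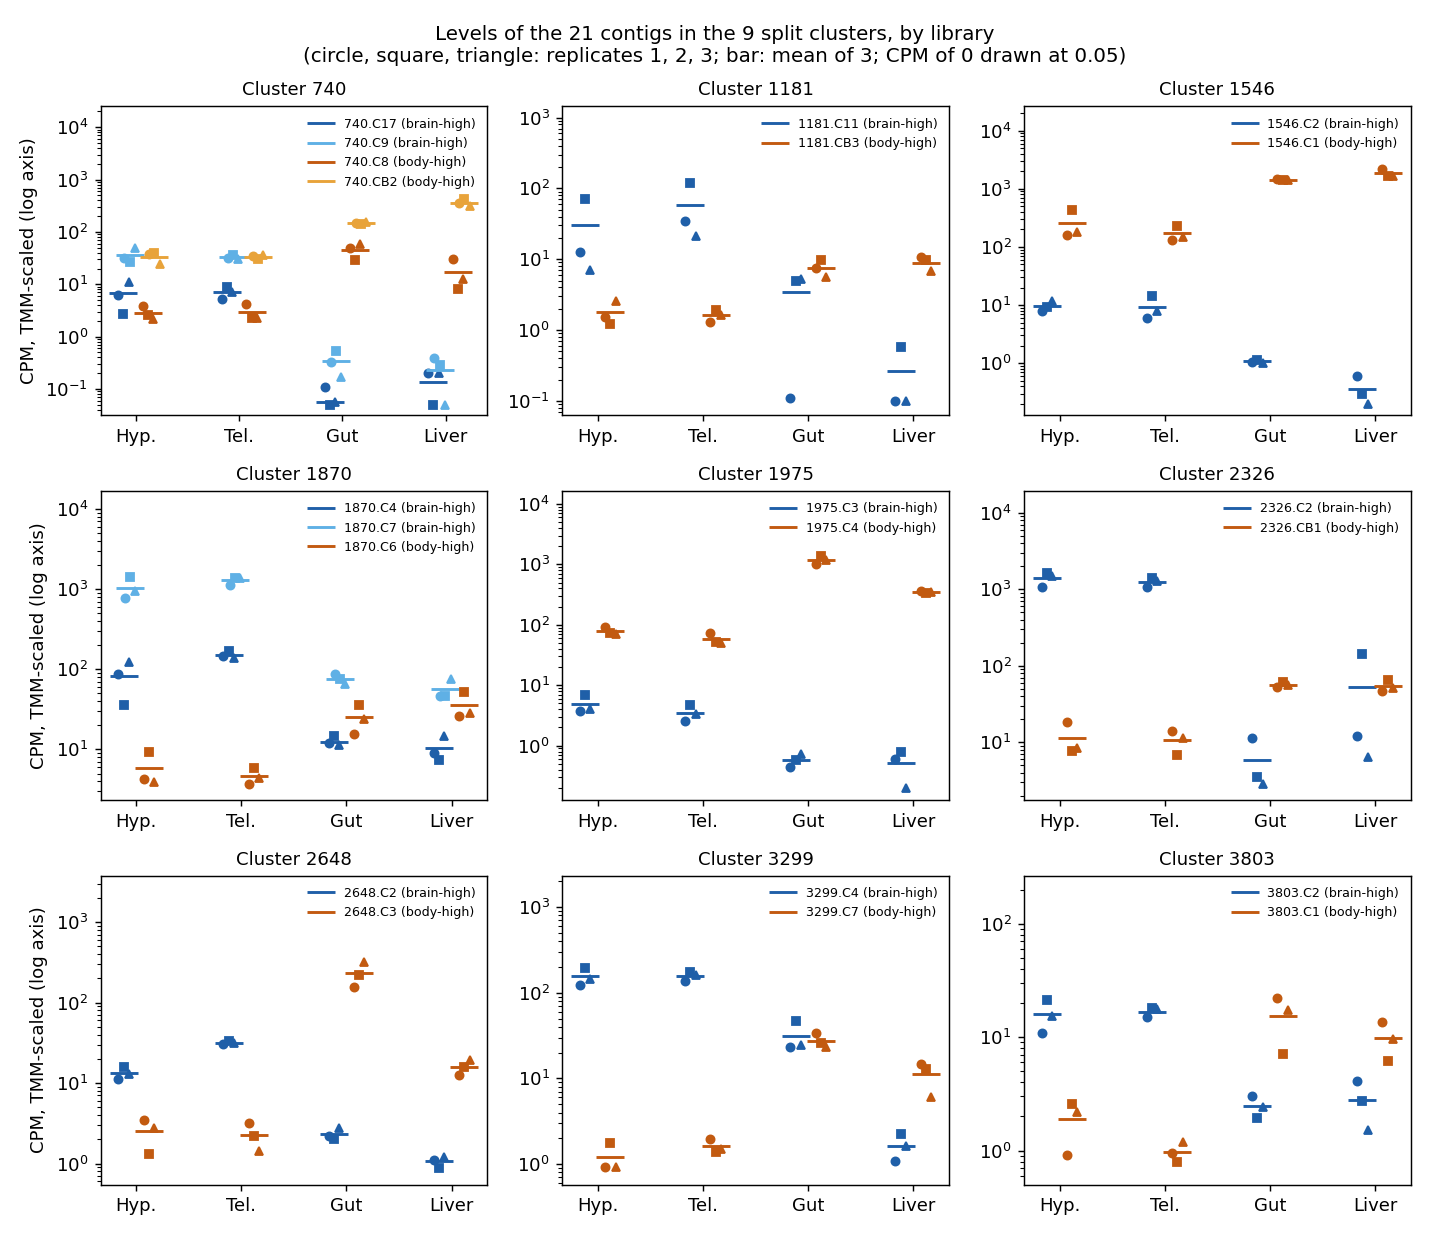
TMM-scaled CPM of the 21 contigs (vertical log axes) in hypothalamus, telencephalon, gut and liver (horizontal axes), with 1 panel per split cluster. Each point is 1 library, its shape gives the replicate number, bars are means of 3 libraries, and a CPM of 0 is drawn at 0.05. Blue brain-high contigs are higher in all 6 brain libraries and orange body-high contigs in all 6 gut and liver libraries of each panel.

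Cluster 740 was the largest of the 9, with 14 tested contigs, and the only one with 2 members of each kind. Brain-high 740.C9 was at 32.4, 26.3 and 48.7 CPM in hypothalamus, 31.6, 36.8 and 30.9 CPM in telencephalon, 0.333, 0.524 and 0.166 CPM in gut, and 0.399, 0.291 and 0 CPM in liver. Brain-high 740.C17 was at 6.23, 2.74 and 11.2 CPM in hypothalamus, 5.32, 8.78 and 7.18 CPM in telencephalon, 0.111, 0 and 0.0553 CPM in gut, and 0.1996, 0 and 0.201 CPM in liver. Both contigs were close to absent from gut and liver, where 740.C17 had 3 counts over the 3 gut libraries and 4 over the 3 liver libraries, and 740.C9 had 7 over the 3 liver libraries. For the following ratios, counts were summed over the libraries of a side and set against the sum of their scaled totals. On that scale 740.C17 in brain was 126 times that in gut (95% counting interval 43.2 to 614) and 52.0 times that in liver (20.3 to 191). Contig 740.C9 was 149 times higher in brain than in liver (72.1 to 370). Such intervals are exact binomial (Clopper-Pearson) intervals for the split of the counts between the 2 sides, turned into ratios. They cover counting error only.

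The body-high contigs of cluster 740 were not absent from brain. Contig 740.CB2 was at 37.1, 39.6 and 24.6 CPM in hypothalamus, 34.95, 30.3 and 36.3 CPM in telencephalon, 149, 143 and 152 CPM in gut, and 354, 419 and 310.4 CPM in liver. Contig 740.C8 was at 3.82, 2.58 and 2.17 CPM in hypothalamus, 4.29, 2.26 and 2.23 CPM in telencephalon, 48.7, 29.05 and 59.1 CPM in gut, and 30.1, 8.25 and 12.7 CPM in liver. Gut and liver stood in opposite order in these contigs of the same cluster, with 740.CB2 higher in every liver library than in every gut library and 740.C8 higher in gut on average with overlap between gut and liver. The margins were 4.37 for 740.CB2 and 5.82 for 740.C8. The margin of 740.CB2 was 3.86 without hypothalamus 3 and that of 740.C8 was 3.58 without liver 1. Here and below, the TMM scaling was recomputed when a library was left out, so such margins also carry shifts in scaling. Of the 10 other contigs, 740.C16 had means of 96.9 CPM in hypothalamus, 78.9 CPM in telencephalon, 109 CPM in gut and 108 CPM in liver. Contig 740.C7 had means of 29.5, 43.1, 24.4 and 7.25 CPM in the same order of tissues.

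Cluster 1181 had 11 tested contigs. Brain-high 1181.C11 was at 12.7, 70.1 and 6.99 CPM in hypothalamus, 34.8, 120.3 and 21.5 CPM in telencephalon, 0.111, 4.98 and 5.201 CPM in gut, and 0.0998, 0.582 and 0.101 CPM in liver. Body-high 1181.CB3 was at 1.53, 1.21 and 2.61 CPM in hypothalamus, 1.32, 1.89 and 1.62 CPM in telencephalon, 7.502, 9.699 and 5.698 CPM in gut, and 10.6, 9.61 and 6.75 CPM in liver. The SD of 1181.C11 was as large as its mean in hypothalamus (29.9 ± 34.9 CPM, SD, n = 3) and close to it in telencephalon (58.8 ± 53.7 CPM, SD, n = 3), with replicate 2 the highest in both regions. Its margin of 8.73 was 2.63 without hypothalamus 2, so the cluster was then not split. Liver held 8 counts of 1181.C11 in all, and brain was 170 times higher (95% counting interval 86.3 to 394). Contig 1181.CB3 was low in every tissue and stayed at 10.6 CPM or less, with a margin of 4.28 that was 3.70 without gut 2. Among the other contigs, 1181.C7 had mean counts of 30.7 in hypothalamus and 106 in telencephalon and was listed at 0 in all gut and liver libraries, and it was left out for its low count in hypothalamus.

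Clusters 1546 and 3803 held 2 tested contigs each, and both contigs were members. Brain-high 1546.C2 was at 7.94, 9.31 and 11.7 CPM in hypothalamus, 5.905, 14.1 and 7.79 CPM in telencephalon, 1.06, 1.15 and 0.996 CPM in gut, and 0.599, 0.291 and 0.201 CPM in liver. Body-high 1546.C1 was at 158, 439 and 179 CPM in hypothalamus, 132, 230.4 and 150.3 CPM in telencephalon, 1462, 1434 and 1406 CPM in gut, and 2196, 1668 and 1655 CPM in liver. In brain as in body, 1546.C1 took most of the cluster's counts, and brain libraries were low in it and high in 1546.C2. The margins were 8.68 for 1546.C2 and 5.54 for 1546.C1. Hypothalamus 2 was far above the other hypothalamus libraries in 1546.C1, and the margin was 9.08 without it.

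Brain-high 3803.C2 was at 10.9, 21.2 and 15.5 CPM in hypothalamus, 14.96, 17.9 and 17.6 CPM in telencephalon, 3.001, 1.94 and 2.43 CPM in gut, and 4.09, 2.72 and 1.51 CPM in liver. Body-high 3803.C1 was at 0.9198, 2.58 and 2.17 CPM in hypothalamus, 0.954, 0.802 and 1.18 CPM in telencephalon, 22.2, 7.13 and 17.2 CPM in gut, and 13.6, 6.11 and 9.67 CPM in liver. Here the major contig changed with the tissue, since 3803.C2 had more counts than 3803.C1 in every brain library and fewer in every gut and liver library. The margins were 5.72 for 3803.C2 and 5.18 for 3803.C1.

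Cluster 1870, with 7 tested contigs, had 2 brain-high contigs and 1 body-high contig. Brain-high 1870.C7 was at 783, 1399.8 and 955 CPM in hypothalamus, 1121, 1368 and 1362 CPM in telencephalon, 86.4, 74.6 and 65.4 CPM in gut, and 47, 45.9 and 76.2 CPM in liver. Brain-high 1870.C4 was at 88.4, 35.7 and 122 CPM in hypothalamus, 146, 169.6 and 140.2 CPM in telencephalon, 11.9, 14.5 and 11.2 CPM in gut, and 9.08, 7.28 and 14.5 CPM in liver. Body-high 1870.C6 was at 4.29, 9.35 and 3.98 CPM in hypothalamus, 3.74, 5.87 and 4.38 CPM in telencephalon, 15.6, 36.3 and 23.9 CPM in gut, and 25.9, 52.8 and 28.8 CPM in liver. The brain-high pair differed in their spread, with 1870.C4 at 35.7 CPM in hypothalamus 2 against 88.4 and 122 CPM in the other hypothalamus libraries, and 1870.C7 highest in that same library. In 1870.C6 replicate 2 was the highest library of every tissue. Its margin of 4.30 fell below 4 without hypothalamus 1 (3.94), without hypothalamus 3 (3.70) or without gut 2 (3.36), and the cluster was then not split. Contig 1870.C1, which met neither rule, had means of 62.0 CPM in hypothalamus, 69.4 CPM in telencephalon, 49.7 CPM in gut and 66.8 CPM in liver.

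Cluster 1975 had 3 tested contigs. Brain-high 1975.C3 was at 3.68, 7.002 and 3.98 CPM in hypothalamus, 2.604, 4.63 and 3.37 CPM in telencephalon, 0.445, 0.577 and 0.719 CPM in gut, and 0.599, 0.776 and 0.201 CPM in liver. Body-high 1975.C4 was at 90.6, 72.1 and 71.5 CPM in hypothalamus, 74.3, 52.9 and 49.5 CPM in telencephalon, 1020.1, 1372 and 1189 CPM in gut, and 369, 333 and 343 CPM in liver. The body-high contig was the major one in all 4 tissues, and gut stood above liver in all libraries. The margins were 6.09 for 1975.C3 and 4.47 for 1975.C4. The cluster's remaining contig, 1975.C2, had means of 3.09 CPM in hypothalamus, 3.82 CPM in telencephalon, 3.37 CPM in gut and 2.91 CPM in liver.

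Cluster 2326 had 3 tested contigs. Brain-high 2326.C2 was at 1081, 1619 and 1519 CPM in hypothalamus, 1068, 1422 and 1282 CPM in telencephalon, 11.4, 3.51 and 2.82 CPM in gut, and 12.1, 141 and 6.45 CPM in liver. Body-high 2326.CB1 was at 18.3, 7.78 and 8.396 CPM in hypothalamus, 14.2, 6.85 and 11.3 CPM in telencephalon, 52.6, 61.7 and 56.98 CPM in gut, and 46.9, 66.2 and 50.7 CPM in liver. Liver 2 stood apart in 2326.C2, with 1453 counts, against 121 in liver 1 and 64 in liver 3. The margin was 23.6 with that library and 136 without it. The other 2183 brain-high assembly contigs summed to 7155 CPM in liver 2, against 7178 CPM in liver 1 and 6756 CPM in liver 3. Why 2326.C2 was high in liver 2 was not tested. Contig 2326.CB1 was also highest in liver 2, at 66.2 CPM, against 46.9 CPM in liver 1 and 50.7 CPM in liver 3, and its margin was 4.75.

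Cluster 2648 had 3 tested contigs. Brain-high 2648.C2 was at 11.3, 15.96 and 12.9 CPM in hypothalamus, 30.1, 32.9 and 31.7 CPM in telencephalon, 2.17, 2.04 and 2.77 CPM in gut, and 1.098, 0.874 and 1.21 CPM in liver. Body-high 2648.C3 was at 3.44, 1.33 and 2.73 CPM in hypothalamus, 3.15, 2.22 and 1.44 CPM in telencephalon, 156, 218 and 316 CPM in gut, and 12.7, 15.6 and 19.2 CPM in liver. All telencephalon libraries were above all hypothalamus libraries in 2648.C2, and all gut libraries were above all liver libraries in 2648.C3. The margins were 5.76 for 2648.C2 and 6.34 for 2648.C3. The mean of 2648.C3 in gut was 96.3 times that in brain, and its mean in liver was 6.64 times that in brain.

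Cluster 3299 had 4 tested contigs. Brain-high 3299.C4 was at 124, 195 and 147 CPM in hypothalamus, 139, 175 and 163 CPM in telencephalon, 23.5, 46.4 and 24.6 CPM in gut, and 1.098, 2.23 and 1.61 CPM in liver. Body-high 3299.C7 was at 0.9198, 1.76 and 0.924 CPM in hypothalamus, 1.98, 1.38 and 1.49 CPM in telencephalon, 33.8, 25.6 and 23.4 CPM in gut, and 14.7, 13.01 and 6.04 CPM in liver. Contig 3299.C4 was graded, with brain over gut and gut over liver in every library, so that its mean in brain was 4.99 times that in gut and 95.4 times that in liver. Its margin of 4.93 was 3.95 without hypothalamus 2, and the cluster was then not split. At the CPM given above, the mean of the other hypothalamus libraries stayed over 4 times that of gut. Leaving out hypothalamus 2 thus took the margin below 4 only together with the recomputed scaling, and the part of each was not tested. Contig 3299.C7 had the largest margin of the body-high members, at 6.95. The other contigs of the cluster were also higher in gut and liver than in brain by at least 4-fold and were left out for their low counts in liver, with 3299.C5 at mean counts of 368 in gut and 20 in liver and 3299.C1 at 344 in gut and 49.7 in liver.

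Across all members, with the scaling recomputed, 6 of 21 fell below a margin of 4 without at least 1 of the 12 libraries, and 15 did not. Of the 9 clusters, 3 were not split without at least 1 library (1181, 1870 and 3299), and 6 were split whichever library was left out. The 28 contigs of the split clusters that met neither rule were of 4 kinds. In 12 of them a tissue reached a mean count of 50 but brain and body were not 4-fold apart. A further 9 were not 4-fold apart either and did not reach that count in any tissue. Another 4 were at least 4-fold higher in body with too low a count, and 3 were at least 4-fold higher in brain with too low a count.

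A share of counts within 1 library does not depend on the scaling between libraries, although a longer contig collects more reads. The share of the members' counts that fell on brain-high contigs was therefore computed in each library. It was higher in every brain library than in every gut and liver library in all 9 clusters, as the rule on levels leads to. In cluster 3299 the share was 98.6% to 99.4% in the brain libraries and 6.96% to 64.4% in the gut and liver libraries. In cluster 3803 it was 87.7% to 95.7% in brain and 11.9% to 30.8% in gut and liver, and in cluster 2648 it was 76.7% to 95.7% in brain and 0.868% to 7.97% in gut and liver. In these 3 clusters the members' counts fell mostly on the brain-high contig in brain, and mostly on the body-high contig in body but for some libraries of cluster 3299. The same held in every library of cluster 1181 and in all libraries but liver 2 of cluster 2326, with shares given below.

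The clusters differed in which contig was the major one. In clusters 1546 and 1975 the brain-high contig stayed the minor one even in brain, with 2.08% to 6.12% of the members' counts in brain against 0.0122% to 0.0804% in gut and liver for cluster 1546, and 3.38% to 8.85% against 0.0420% to 0.232% for cluster 1975. In cluster 1870 the brain-high pair stayed the major part in both, with 99.3% to 99.7% in brain and 50.2% to 86.3% in gut and liver. In cluster 740 the share was 40.7% to 69.1% in brain, the highest being hypothalamus 3, and 0.0623% to 0.303% in gut and liver. In cluster 2326 the share was 98.3% to 99.5% in brain and 4.72% to 68.1% in gut and liver, the highest of these being liver 2. In cluster 1181 it was 72.8% to 98.5% in brain, and in body it was 0.935% to 47.7%, with 1.46% in gut 1 against 33.9% and 47.7% in gut 2 and gut 3.

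**Figure D2:**
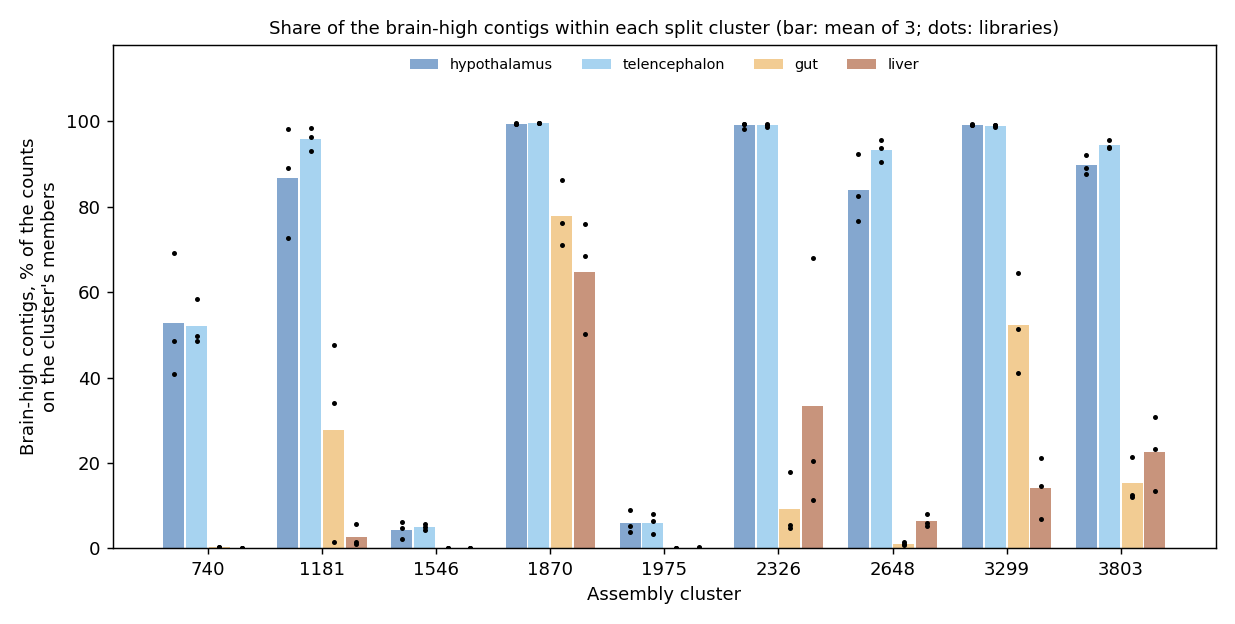
Percent of the counts on each cluster's members that fell on brain-high contigs (vertical axis) for the 9 clusters (horizontal axis). Bars coloured by tissue are means of 3 libraries, and each black point is 1 library. The brain libraries lie above the gut and liver libraries in every cluster, close to 100% in clusters 1870, 2326 and 3299 and at 8.85% or less in clusters 1546 and 1975.

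The ratio of brain-high to body-high counts in a library gives the same contrast without a ceiling. The log2 ratios were averaged over the 6 libraries of each side. On that scale the ratio was 857 times higher in brain than in body for cluster 740 and 672 times higher for cluster 2326. Without liver 2 these folds were 754 and 1094, so which of the 2 clusters was split more widely hung on that library. The fold was 56.7 for cluster 3803, the lowest of the 9, and 75.6 to 344 for the other 6. For cluster 1181 it was 280 with all libraries, 426 without gut 2 and 478 without gut 3. Several of these folds rest on few reads. The brain-high counts of cluster 740 were 8, 10 and 4 in gut and 6, 3 and 2 in liver. Those of cluster 1181 were 2 in gut 1 and 1, 6 and 1 in liver. Over the 6 gut and liver libraries the log2 ratios had an SD of 0.926 in cluster 740, 2.84 in cluster 1181 and 1.98 in cluster 2326. The folds come from the contrast that chose the members and are given without a test.

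The summed level of a cluster, over members and other contigs alike, was also set side by side in brain and body. For this, the CPM of all tested contigs of a cluster were summed in each library. Unlike the shares, such sums depend on the scaling between libraries. Relative to library size alone, TMM raised body over brain by 1.68-fold, so the ratios below hold for TMM scaling. The mean sum of the 6 brain libraries was within 2-fold of that of the 6 gut and liver libraries in 2 of the 9 clusters. Cluster 3803 averaged 17.8 CPM in brain and 15.3 CPM in body, a ratio of 1.17. Cluster 740 averaged 230 CPM in brain and 436 CPM in body, a ratio of 0.527. With the scaling recomputed, it was no longer within 2-fold without hypothalamus 1 or without hypothalamus 2, when 1 cluster was left.

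In the other 7 clusters the mean sums were over 2-fold apart. They were higher in brain in cluster 2326 (15.7-fold), cluster 1870 (7.82-fold), cluster 3299 (2.72-fold) and cluster 1181 (2.46-fold). They were higher in body in cluster 1975 (10.2-fold), cluster 1546 (7.30-fold) and cluster 2648 (4.97-fold). In cluster 2648 the sum averaged 16.1 ± 1.32 CPM in hypothalamus, 34.0 ± 1.17 CPM in telencephalon, 232 ± 81.1 CPM in gut and 17.0 ± 3.27 CPM in liver (SD, n = 3 each), so that the body side was higher through gut while liver lay between the brain regions. The members made up 98.4% or more of the cluster's counts in each library of clusters 1546, 2326, 2648 and 3803 and at least 92.7% in cluster 1975. They made up 31.3% to 80.0% in cluster 740, 15.7% to 65.7% in cluster 1181, 50.9% to 97.7% in cluster 1870 and 46.3% to 99.5% in cluster 3299, so in these clusters the sum also rests on contigs that met neither rule.

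**Figure D3:**
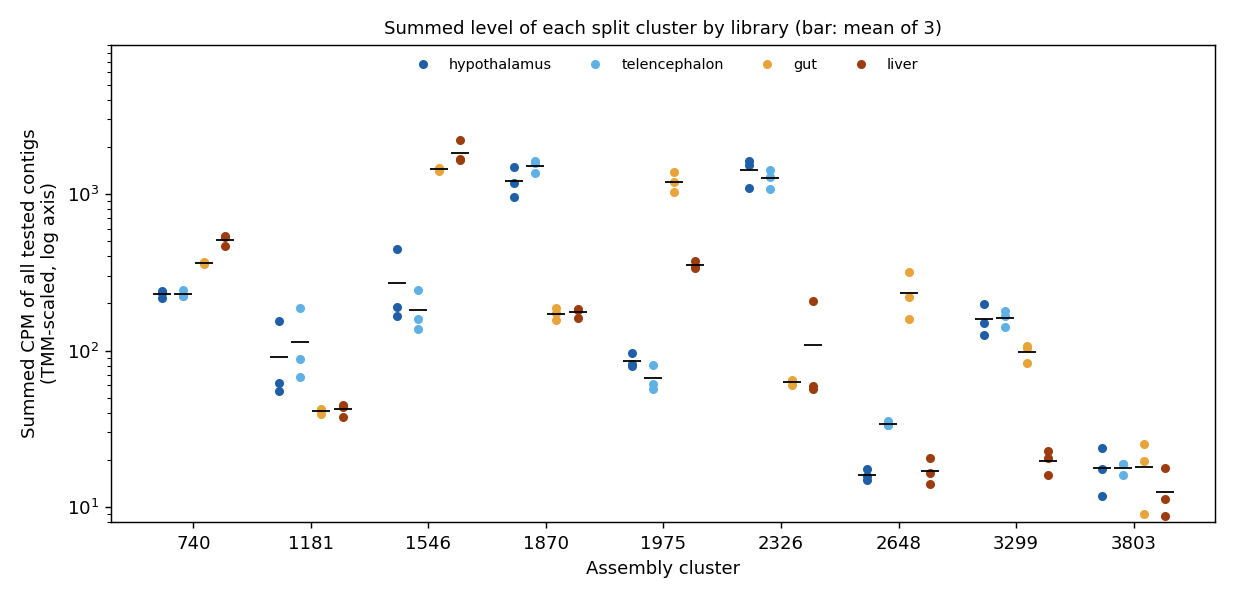
Summed TMM-scaled CPM of all tested contigs of each split cluster (vertical log axis) for the 9 clusters (horizontal axis), with 1 point per library coloured by tissue and bars for means of 3 libraries. The sums lie close together in the 4 tissues for cluster 3803 and lie apart for clusters 1546, 1870, 1975 and 2326.

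The rule used no difference between the brain regions, but it asked for high or low levels in both, which favours contigs that are alike in hypothalamus and telencephalon. The calls and medians of the members are therefore descriptions of contigs chosen in this way. The comparison asked whether contigs that set brain apart from body, in either direction, also differed between hypothalamus and telencephalon. With edgeR's quasi-likelihood test over all 42878 contigs and Benjamini-Hochberg adjustment, 205 contigs differed at an adjusted p under 0.05 (0.478%, with 0.252% higher and 0.226% lower in hypothalamus), and 0 of the 21 members did. Without a block for the replicate number, there was 1 member at an unadjusted p under 0.05, 2648.C2, and 5.83% of all contigs. That contig averaged 13.4 ± 2.36 CPM in hypothalamus and 31.6 ± 1.38 CPM in telencephalon (SD, n = 3 each), a log2 fold change of -1.25 (SE 0.20) with an edgeR adjusted p of 0.0586. It passed with edgeR's exact test (adjusted p = 0.00795), with DESeq2 (adjusted p = 0.000123), with library size alone, with a stricter filter and without hypothalamus 2, and over all alternatives the adjusted p was 0.000123 to 0.443. Each of these tools and settings called 1 member. With the replicate number as a block, the unadjusted edgeR p was under 0.05 in 2648.C2 (0.00051) and 1181.C11 (0.000618). It was also under 0.05 in 1870.C4 (0.019, adjusted p = 0.462) and 1546.C1 (0.0432, adjusted p = 0.651). The share of all contigs at that level is given for the fit without a block only.

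The log2 fold changes of hypothalamus over telencephalon had a median of -0.08 over the 11 brain-high contigs and of 0.14 over the 10 body-high contigs, against 0 over all contigs tested. The median absolute change was 0.15 for the brain-high and 0.23 for the body-high contigs, against 0.32 over all contigs tested, which include many of low count. The highest log2 fold change was 0.92 (SE 0.50) in body-high 3803.C1, with hypothalamus 1 inside the range of telencephalon. Brain-high 1181.C11 was at -0.98 (SE 0.93), with the 2 regions overlapping but telencephalon higher in all 3 pairs of libraries with the same number. With the replicate number as a block, its log2 fold change was -1.29 (SE 0.24, edgeR adjusted p = 0.0639), and without telencephalon 2 and without the block it was 0.09. Over the members, hypothalamus was higher in all 3 pairs in 4 (1546.C1, 1975.C3, 1975.C4 and 2326.C2) and lower in all 3 pairs in 3 (1181.C11, 1870.C4 and 2648.C2), while 14.3% and 13.5% of all contigs were so. A p above the threshold does not show that these contigs were equal in both regions.

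The rule likewise used no difference between gut and liver, but it took the lower or the higher of their means, which limits how they can differ in a member. These calls are therefore descriptions too. The comparison asked whether the contigs that prevailed in the body tissues, and those that prevailed in brain, also differed between gut and liver. Of all contigs tested, 8473 differed (19.8%), with 10.8% higher and 9.01% lower in gut. Of the 21 members, 5 differed, with 4 higher and 1 lower in gut. Of the 5, 3299.C4 was brain-high and the other 4 were body-high.

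The widest of these differences was in the brain-high contig. In 3299.C4 the mean was 31.5 ± 12.9 CPM in gut and 1.65 ± 0.568 CPM in liver (SD, n = 3 each), a log2 fold change of 4.19 (SE 0.41, edgeR adjusted p = 0.000444). Body-high 2648.C3 averaged 230 ± 80.8 CPM in gut and 15.9 ± 3.29 CPM in liver (SD, n = 3 each), a log2 fold change of 3.80 (SE 0.35, edgeR adjusted p = 0.000329). Body-high 1975.C4 averaged 1194 ± 176 CPM in gut and 349 ± 18.5 CPM in liver (SD, n = 3 each), a log2 fold change of 1.71 (SE 0.22, edgeR adjusted p = 0.00153). In these 3 contigs gut was higher in every library. Body-high 740.CB2 went the other way, at 148 ± 4.18 CPM in gut and 361 ± 55.0 CPM in liver (SD, n = 3 each), a log2 fold change of -1.35 (SE 0.20, edgeR adjusted p = 0.00278). Body-high 3299.C7 averaged 27.6 ± 5.47 CPM in gut and 11.2 ± 4.58 CPM in liver (SD, n = 3 each), a log2 fold change of 1.24 (SE 0.35, edgeR adjusted p = 0.0419). That last call was lost without gut 1 (adjusted p = 0.12), gut 2 (0.107), gut 3 (0.0788), liver 2 (0.0793) or liver 3 (0.0523).

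In 6 of the 9 clusters (740, 1181, 1546, 1870, 2326 and 3803) the fold changes of the members between gut and liver had both signs, and in none of them did members pass this test in both directions. In cluster 2326 this rests on 2326.CB1, at 0.00484 (SE 0.20), whose sign turned with DESeq2, among other alternatives. Scaling by library size alone turned the sign of 4 members that had not passed, 1181.CB3, 1546.C1, 1870.C6 and 3803.C2. The members of each of these 4 clusters then had the same sign. In cluster 740, 740.CB2 was lower in gut and 740.C8 had a log2 fold change of 1.36 (SE 0.50, edgeR adjusted p = 0.104). With the replicate number as a block, 740.C8 passed (edgeR adjusted p = 0.00745), as did 1181.C11 (edgeR adjusted p = 0.0105), so that 7 members were called and cluster 740 held calls in both directions. Without the block 1181.C11 had a log2 fold change of 3.61 (SE 1.30, edgeR adjusted p = 0.0998), and without gut 1, its lowest gut library, it was 4.18 (SE 0.74, edgeR adjusted p = 0.0114). In 2326.C2 the log2 fold change was -3.21 (SE 1.18, edgeR adjusted p = 0.106), and without liver 2 it was -0.71 (SE 0.66, edgeR adjusted p = 0.56). The medians over the members were 0.35 for the brain-high and 0.30 for the body-high contigs, against 0.05 over all contigs tested.

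**Figure D4:**
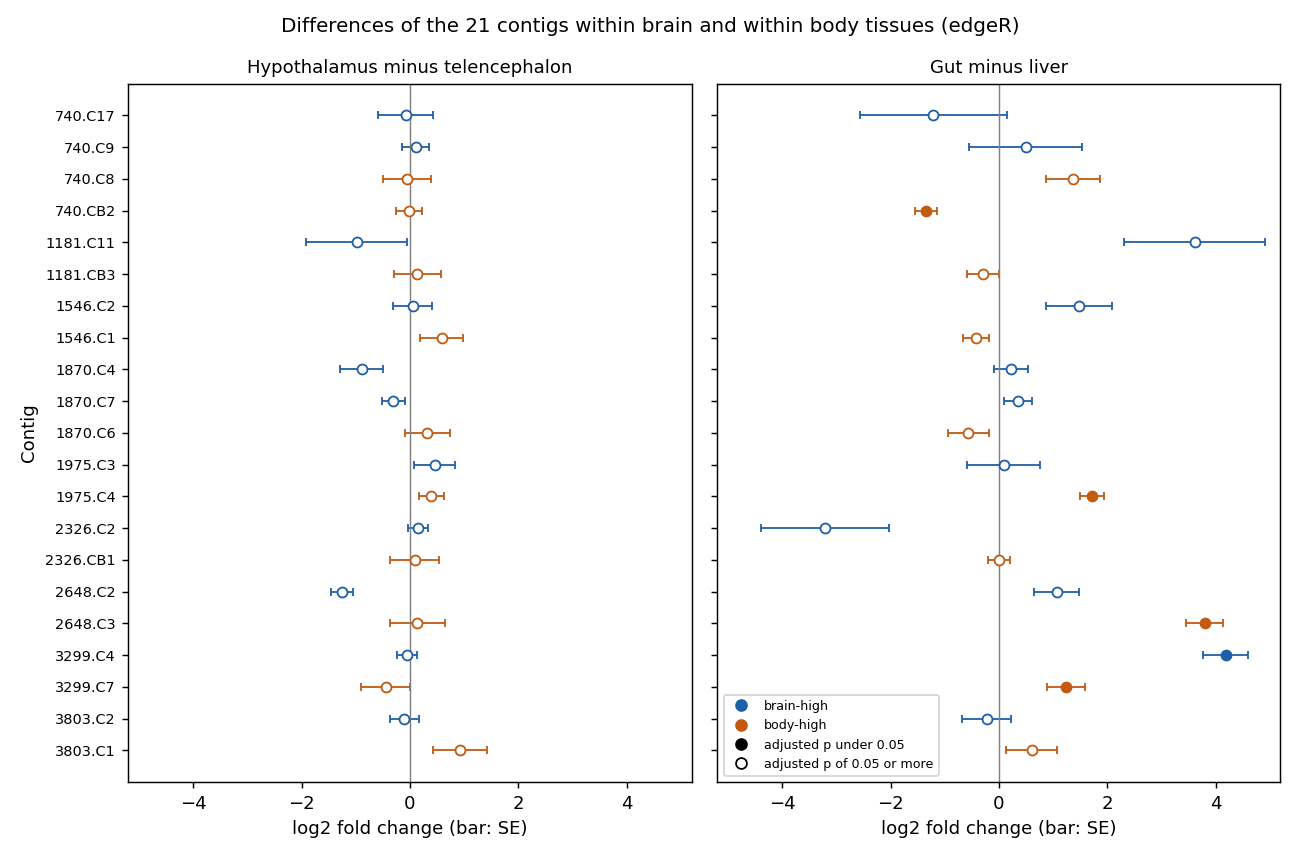
Log2 fold changes of the 21 contigs (rows) for hypothalamus minus telencephalon (left panel) and gut minus liver (right panel), from edgeR's quasi-likelihood fits, with SE as bars. Filled points have an adjusted p under 0.05, which holds for 0 contigs on the left and 5 on the right, and blue marks brain-high and orange body-high contigs.

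Contig usage, the level of a contig against the total of its cluster, was tested with edgeR's diffSpliceDGE over the 9209 contigs of clusters with at least 2 tested contigs. This asked whether the make-up of a cluster, which the rule had split between brain and body, also shifted inside the brain or inside the body. Members were asked to be high or low in both tissues of a side, so these calls are descriptions as well. Between hypothalamus and telencephalon, no contig was called (0%, 0 of 9209 by diffSpliceDGE), with 93 of 9209 at an unadjusted p under 0.05, and 0 of the 21 members at either level. Between gut and liver 225 contigs were called (2.44%, with 1.46% higher and 0.988% lower in gut), and 3 of the 21 members in 3 clusters were.

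Those 3 members were 740.C8, 1181.C11 and 2648.C2. Usage of 740.C8 was higher in gut by 1.92 on the log2 scale (diffSpliceDGE adjusted p = 0.0109), and usage of 1181.C11 was higher in gut by 3.71 (adjusted p = 0.0258). Usage of 2648.C2 was lower in gut, at -2.65 (adjusted p = 0.0315), although the level of that contig was not, at 2.33 ± 0.386 CPM in gut and 1.06 ± 0.171 CPM in liver (SD, n = 3 each). The summed level of cluster 2648, which holds 2648.C3, averaged 232 ± 81.1 CPM in gut and 17.0 ± 3.27 CPM in liver (SD, n = 3 each). Leaving out single gut or liver libraries left 0 or 1 of these 3 calls, with 0 left without gut 3 or without liver 3. With the replicate number as a block 4 members were called, the added one being 3299.C4 (diffSpliceDGE adjusted p = 0.00333).

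Differences between the replicate numbers, which were read as the fish, were tested over all 12 libraries with tissue in the model. Of all contigs, 2982 differed between replicate numbers (6.95%), and 1 of the 21 members did. This was body-high 1870.C6 (edgeR adjusted p = 0.0171), in which replicate 2 was highest in all 4 tissues. Its log2 deviation from the tissue mean averaged 0.54 ± 0.17 in replicate 2, -0.37 ± 0.15 in replicate 1 and -0.17 ± 0.17 in replicate 3 (SD, n = 4 tissues each). Without replicate 1 or replicate 2 no member was called, nor without hypothalamus 2 alone (adjusted p = 0.0534), and without replicate 3 there were 2, with 1181.C11 added (edgeR adjusted p = 0.00932).

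At an unadjusted p under 0.05 there were 4 members, 1870.C6 among them, and 16.2% of all contigs. In brain-high 3299.C4 replicate 2 was highest in all 4 tissues (edgeR adjusted p = 0.081). In 1181.C11 replicate 2 was highest in all tissues but gut, where gut 3 was slightly higher (edgeR adjusted p = 0.0978). In 740.C8 replicate 1 averaged 0.49 ± 0.35 above the tissue means (SD, n = 4 tissues, edgeR adjusted p = 0.112).

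Names ending in CB and a number were found in a part of the members. Of the 10 body-high members, 3 had such a name (30%), as did 0 of the 11 brain-high members, against 382 of the 20719 assembly contigs tested (1.84%) and 342 of the 9209 in clusters with at least 2 of them (3.71%). Of the 28 other contigs of the split clusters, 4 had such a name (14.3%), as did 3 of the 4 contigs just outside the limit. The 3 body-high members were 740.CB2, 1181.CB3 and 2326.CB1.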

How the data were processed

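RNA of 12 libraries was sequenced, 3 for each of hypothalamus, telencephalon, gut and liver, grouped by their labels. Before deposit, the authors trimmed adapters, aligned reads with bowtie2, discarded likely PCR duplicates and multiply mapped reads, and tallied the rest, so the deposited values are raw read counts for each contig. Reads shared by near-identical contigs of a cluster were therefore dropped. As mapping target the methods give the consensus sequences of the study in one place and zebrafish sequences in another, whereas the names of the contigs are from fathead minnow. Tool versions: not given in the sources used here.

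Contigs absent from a library's list were set to 0, which gave 46309 contigs, of which 42878 were detected in 2 or more libraries of the same tissue and were tested. A count of 3 was worth 0.102 to 0.302 CPM, depending on the library. Pairs of tissues were fitted alone in R 4.3.3 with edgeR 4.0.16 (TMM, quasi-likelihood test), contig usage with its diffSpliceDGE, and replicate numbers with tissue in the model. DESeq2 1.42.0 was an alternative. All p-values were adjusted by Benjamini-Hochberg over all contigs of the test, with a threshold of 0.05. The SE of a log2 fold change was derived from the quasi-likelihood F statistic. The other alternatives were other scalings, filters and limits of the rule, edgeR's exact test, 1 fit of all tissues, the replicate number as a block, and leaving out libraries. The files hold no columns of comparisons by the authors.

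The members and lists were chosen with earlier results of these data known. Since no more than 12 clusters were split, all were named with their members, along with contigs next to the 4-fold limit. Contigs that met neither rule were named after their values were seen. Deviations from the tissue means, over 25918 contigs, correlated above 0.1 in all 18 pairs of libraries with the same number (0.191 to 0.833), and the other pairs were at -0.580 to 0.175, so the numbers pair the libraries. Whether the libraries of a number came from 1 fish is not stated in the labels. Replicates of a tissue differed by a chi-square of 14.8 to 81.3 for each degree of freedom, well above sampling noise, so each was counted as a sample. Correlations of a library with the other 2 of its tissue averaged 0.893 to 0.953.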

Additional observations from a re-analysis of the deposited data

How the results depend on the processing

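The number of split clusters depended on the limits of the rule and on the scaling. Scaling by library size alone gave 0 split clusters with 0 brain-high and 0 body-high members, as did an 8-fold limit, in place of 9, 11 and 10. A 2-fold limit gave 23 clusters with 31 brain-high and 26 body-high contigs, a mean count of 10 gave 14 with 17 and 17, and a mean count of 200 gave 4 with 5 and 4. Size factors of the relative log expression method, no filter and a stricter filter left the 9 clusters as they were. Leaving out 1 library, with the scaling recomputed, gave 7 to 10 clusters, 8 to 12 brain-high and 8 to 12 body-high contigs. Of the 2 clusters with sums within 2-fold, 1 remained with relative log expression factors or a 1.5-fold limit, 4 were found with a 3-fold limit, and leaving out 1 library gave 1 to 2.

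Between hypothalamus and telencephalon, 1 member in place of 0 was called with edgeR's exact test, with DESeq2, with library size alone and with the stricter filter, and leaving out 1 library gave 0 to 1. Between gut and liver, 8 members in place of 5 were called with DESeq2 and with 1 fit of all tissues, 9 with library size alone, and 4 to 6 when 1 library was left out. In place of 3 usage calls between gut and liver there were 0 to 1 when 1 library was left out, and members that differed between replicate numbers were 0 to 2. The fold changes of the 5 members called between gut and liver and that of 2648.C2 between the brain regions kept their direction under the alternatives run, but 7 of the 21 members turned between gut and liver in at least 1 alternative (4 with library size alone and 1 with relative log expression factors) and 12 between the brain regions, none of them called. The cause of these changes was not tested.

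With the replicate number as a block, which pairs the libraries, 0 members were called between hypothalamus and telencephalon, 7 in place of 5 between gut and liver, and for usage 0 between the brain regions and 4 in place of 3 between gut and liver. With 3 libraries per tissue, a contig of low count in gut and liver, such as 740.C17, has a fold that is set by a few reads.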
